A study of Mus musculus with 111 samples.

Results

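The 10 genes described here encode core parts of autophagy and were chosen by name: Ulk1, Becn1, Wipi1, Atg5, Atg7, Map1lc3a, Map1lc3b, Gabarapl1, Sqstm1 and Bnip3. All 10 were among the 16029 genes tested. Each was read from the probe set with the highest mean signal among the probe sets that the platform annotation assigns to that gene alone. The study profiled gastrocnemius muscle of male C57BL/6 mice on 111 arrays from 70 mice, 1 muscle per array. Its groups differed by how the hindlimb was put out of use and for how long. Casting immobilised the right hindlimb of 8 week old mice, and the left leg was the control. Cast and control legs numbered 10 and 9 on day 2, 7 and 8 on day 7, and 9 and 9 on day 14. Tenotomy cut an Achilles tendon of 8 week old mice, with 5 legs of each label on day 2, 7 on day 7 and 5 on day 14. Sham surgery exposed and handled the tendon without cutting it, with 3, 7 and 8 muscles on days 2, 7 and 14, and 7 muscles came from naive mice that were not handled. The ages of the sham and naive mice are not given in the sources used here. Both legs were measured in 25 casting and 16 tenotomy animals.

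The operated side of the tenotomy animals is not settled: the right tendon was severed according to the design text, but in the sample labels left legs carry the tenotomy entry and right legs the control entry. These legs are therefore called left (labelled tenotomy) and right (labelled control), and each leg is also given against sham muscle, which like the naive muscle was from the right side. Over all tested genes the distance to the mean of naive muscle was greater for the right leg in 16 of 16 pairs. The beta-actin 3′ to 5′ log2 signal ratio, which can rise as RNA degrades, was higher in the right leg in 15 of 16 pairs, by 0.628 ± 0.441 (SD). The Gapdh 3′ to 5′ ratio did not show this difference. It averaged -0.248, -0.29 and -0.205 in the right legs on days 2, 7 and 14, against -0.266, -0.277 and -0.25 in the left. The actin ratio was below 0 in naive muscle (mean -1.193) and in sham muscle (means -1.309 to -1.123 by day). Whether it followed RNA quality in these muscles was not tested, and results with it as a covariate carry the same limit. All 18 tested macrophage and monocyte markers were lower in the left than in the right leg on day 2 (median log2 difference -3.355), and their summed signal was 1212 to 2693 in the 5 left legs against 18050 to 23690 in the 5 right legs. Cd68, for example, had a median signal of 61.4 in the left legs, 741.0 in the right legs and 49.3 in naive muscle. The part of this difference in the values of the 10 genes was not tested, and in bulk muscle fewer cells of a type and less RNA per cell cannot be told apart. Markers bore out skeletal muscle, though not which muscle: the lowest signal of any of 8 skeletal muscle fibre genes, such as Acta1 and Myh4, on any array was 3744. The highest signal of each of these genes was 22800 to 27000, and 27000 was the highest of all values. They thus lay near the top of the range, and the part of a signal ceiling in their group differences given below was not tested.

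Macroautophagy encloses cytoplasm in a double membrane, the autophagosome, and delivers it to the lysosome. The ULK1 kinase complex starts the process, and a phosphatidylinositol 3-kinase complex that contains Beclin 1 marks the membrane with a lipid that WIPI proteins bind. ATG7 and ATG5 belong to the enzymes that attach LC3 and GABARAP proteins to the growing membrane, and receptors such as p62 (the Sqstm1 product) and BNIP3 tie cargo to them. In skeletal muscle the pathway removes proteins and mitochondria, and genes of it are induced by FOXO3 during denervation and fasting. Transcript levels do not measure the flux of material through it.

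The stretches directly before the start that the promoter table uses are printed below for the members in that table that differed between the legs of the tenotomy animals on day 2. They come from the RefSeq promoter table on GRCm38.p6, which held 8 of the 10 genes (Map1lc3a and Becn1 were not matched). The start used for Atg7 is an internal one, since the annotated gene begins at chr6:114643127. The windows of Ulk1 and Atg5 reach into the annotated gene at their 3′ end. Each is 250 bases, 5′ to 3′ on the gene's strand. Capitals mark the E-box CACGTG, the letters bound by TFEB-type factors.
Ulk1, chr5:110810082-110810331, minus strand: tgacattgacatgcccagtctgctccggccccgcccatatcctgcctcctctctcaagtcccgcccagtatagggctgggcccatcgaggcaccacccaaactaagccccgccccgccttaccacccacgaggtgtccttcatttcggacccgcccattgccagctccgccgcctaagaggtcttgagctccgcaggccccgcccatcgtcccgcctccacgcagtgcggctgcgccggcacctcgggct
Sqstm1, chr11:50210821-50211070, minus strand: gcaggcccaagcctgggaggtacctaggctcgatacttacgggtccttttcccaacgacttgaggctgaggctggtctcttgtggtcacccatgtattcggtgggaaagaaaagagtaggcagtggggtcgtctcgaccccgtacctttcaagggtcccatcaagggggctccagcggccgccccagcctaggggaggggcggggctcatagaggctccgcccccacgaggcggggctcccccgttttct
Map1lc3b, chr8:121590188-121590437, plus strand: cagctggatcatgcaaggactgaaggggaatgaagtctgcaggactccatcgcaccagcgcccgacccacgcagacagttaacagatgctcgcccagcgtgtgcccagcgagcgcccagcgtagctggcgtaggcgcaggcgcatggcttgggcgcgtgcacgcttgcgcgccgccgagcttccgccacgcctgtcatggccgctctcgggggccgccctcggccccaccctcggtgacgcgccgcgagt
Gabarapl1, chr6:129532942-129533191, plus strand: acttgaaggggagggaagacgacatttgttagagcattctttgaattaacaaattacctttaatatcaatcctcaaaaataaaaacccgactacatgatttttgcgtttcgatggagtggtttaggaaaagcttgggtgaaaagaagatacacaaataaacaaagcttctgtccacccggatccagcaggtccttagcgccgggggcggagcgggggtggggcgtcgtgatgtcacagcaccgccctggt
Bnip3, chr7:138909507-138909756, minus strand: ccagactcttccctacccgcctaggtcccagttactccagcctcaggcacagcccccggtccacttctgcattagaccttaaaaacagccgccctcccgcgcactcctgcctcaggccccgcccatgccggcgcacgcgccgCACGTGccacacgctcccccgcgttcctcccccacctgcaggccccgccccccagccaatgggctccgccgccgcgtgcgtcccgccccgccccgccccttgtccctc
Atg7, chr6:114670846-114671095, plus strand: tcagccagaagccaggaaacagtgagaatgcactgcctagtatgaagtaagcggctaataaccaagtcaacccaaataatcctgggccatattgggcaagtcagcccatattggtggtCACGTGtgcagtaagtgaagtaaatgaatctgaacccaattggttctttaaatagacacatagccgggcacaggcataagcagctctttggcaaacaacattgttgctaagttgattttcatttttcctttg

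The windows of Ulk1, Sqstm1, Map1lc3b and Bnip3 were rich in G and C (67.2%, 63.2%, 69.6% and 72.4%, against a median of 52.0% over 27025 promoters), and those of Gabarapl1 and Atg7 held 46.8% and 43.2%. Searched on both strands, the E-box was found in 3 of the 8 members' windows, starting 108 bases before the start of Bnip3, 14 before Atg5 and 132 before Atg7, and in 6.05% of all promoter windows of this length. The matches of Atg5 and Atg7 lie inside the outer limits of the annotated genes. The FOXO motif GTAAACA was in 0 of 8 (3.09% of all) and the ATF4-type motif TGATGNAA in 0 of 8 (3.53% of all). Only this spelling of the FOXO motif was searched. The Gabarapl1 window holds ATAAACA, which differs from it in the first base and was not counted, so 0 of 8 does not show that FOXO sites are absent. A match is a run of letters, not a measured binding site.

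Signals of the 10 genes spanned a wide range on the scale of the arrays, and signals of different probe sets cannot be ranked as transcript amounts. Between groups, Ulk1 covered the widest range of the 10, 2.48 times from its lowest group mean (right legs of the tenotomy animals on day 2) to its highest (cast legs on day 2). Map1lc3b covered 1.98 times, Gabarapl1 1.89 and Sqstm1 1.80. Becn1 covered the least, 1.37 times, from naive muscle to the casting control legs of day 14. With the 16 group means of a gene in order, the step between neighbours was within 1 SD of the arrays in 14 of 15 steps for Ulk1, Sqstm1 and Gabarapl1 and in 15 of 15 for the other 7 genes. For Ulk1 the exception was the step from the left legs of the tenotomy animals on day 14 up to the cast legs of day 2.

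**Figure D1:**
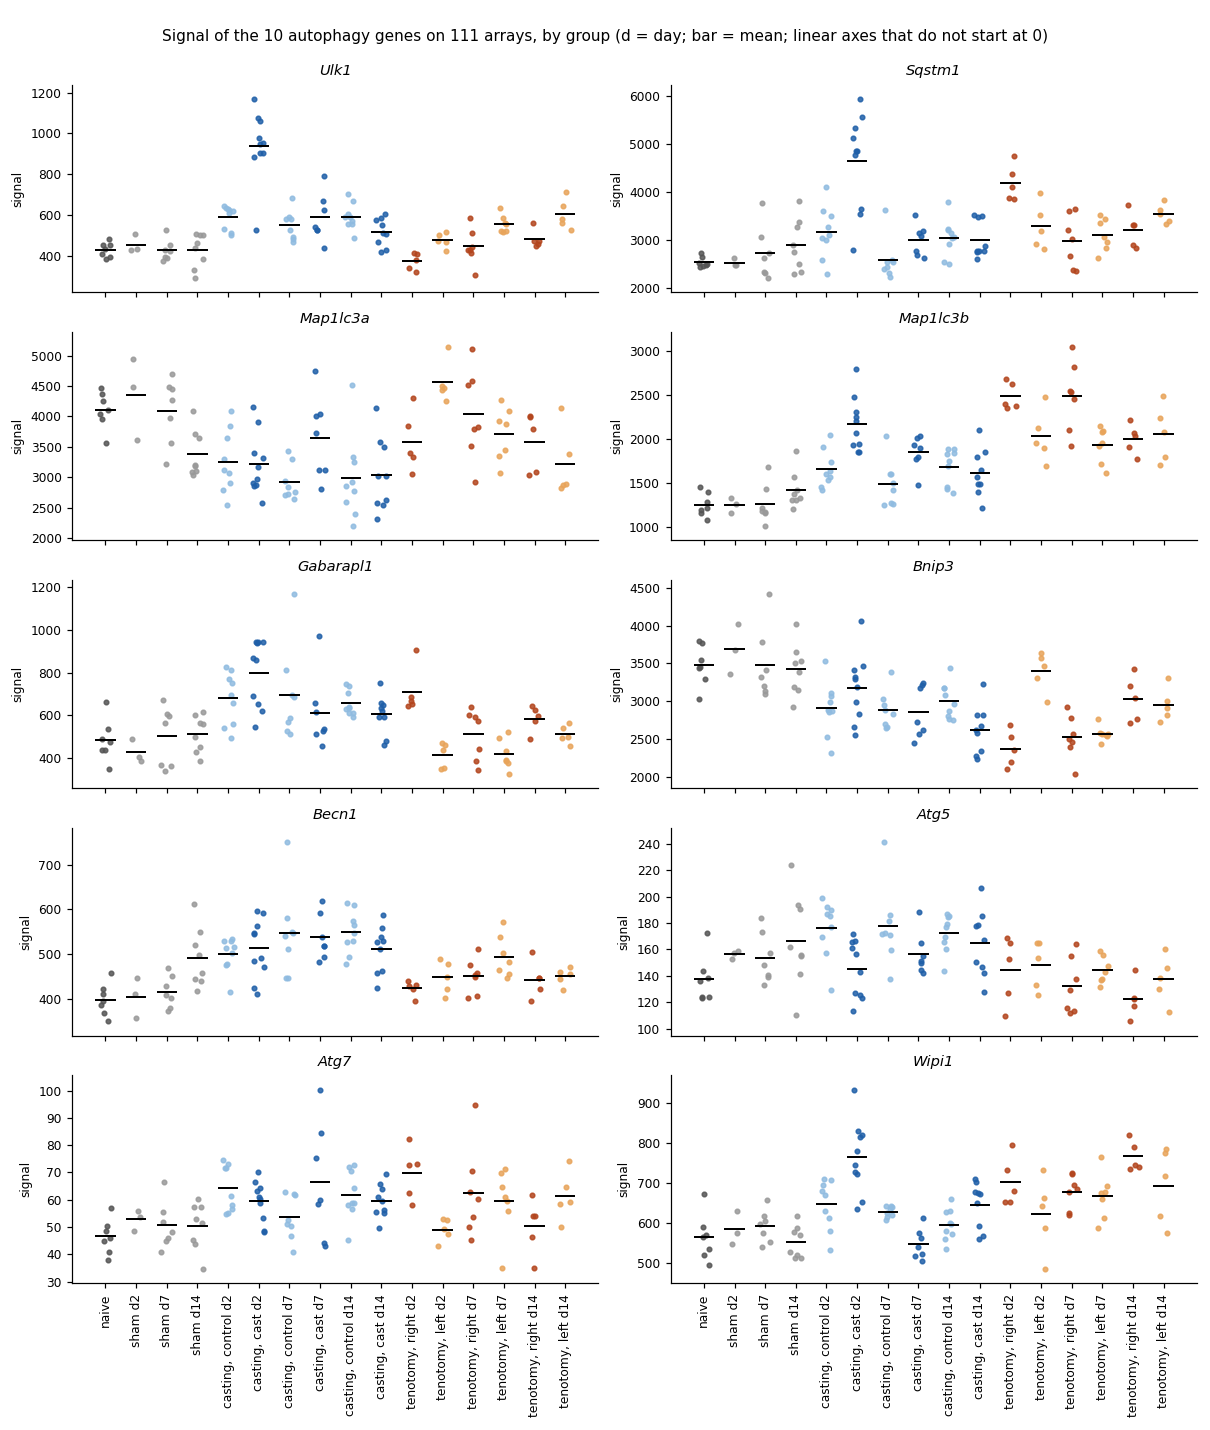
Signal of each gene on every array (points, linear axes with their own range that do not start at 0) in the 16 groups along the x axis, with the group mean as a bar; left and right are the legs labelled tenotomy and control. The day 2 cast legs stand highest for Ulk1 (mean 941.0) and Sqstm1 (mean 4650), and the right legs of the tenotomy animals on days 2 and 7 stand highest for Map1lc3b (means 2480 and 2486).

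Leg differences were estimated within a limma model of all 16 groups, on log2 of the signal plus 3.982, with the animal as a random block. A gene is said to rise, fall or differ where its adjusted p (limma's moderated test, Benjamini-Hochberg over all 16029 genes of the comparison) was under 0.05. On day 2 of casting, 4 of the 10 genes were higher in the cast legs (Ulk1, Sqstm1, Map1lc3b and Wipi1) and 1 was lower (Atg5). Over all genes 24.3% passed, 11.0% higher and 13.3% lower. On day 7 there were 2, Map1lc3b higher and Wipi1 lower (8.78% of all genes), and on day 14 only Bnip3 passed, lower (13.3% of all genes). In the tenotomy animals on day 2, 3 genes were higher in the left than in the right leg (Ulk1, Map1lc3a and Bnip3) and 4 were lower (Sqstm1, Map1lc3b, Gabarapl1 and Atg7), where 36.8% of all genes passed, 15.9% higher and 20.8% lower. On day 7 Ulk1 was higher and Map1lc3b lower (33.0% of all genes), and on day 14 Ulk1 was higher (23.2% of all genes). The median log2 difference of the 10 genes was 0.18 on day 2 of casting, against -0.03 over all genes, and -0.07 on day 2 of the tenotomy animals, against -0.03.

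**Figure D2:**
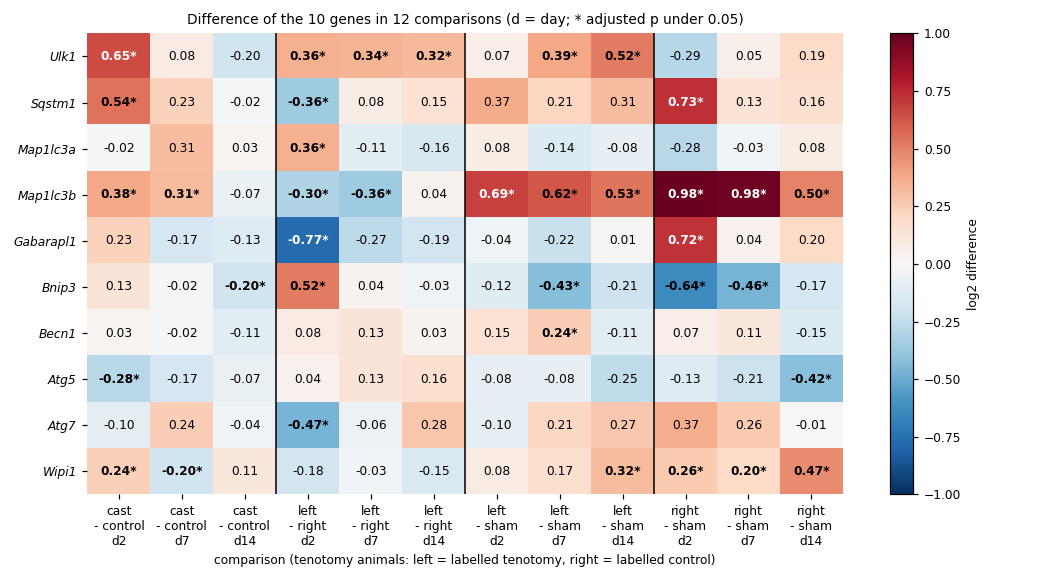
Log2 differences of the 10 genes (rows) in 12 comparisons (columns: cast minus control, left minus right, left minus sham and right minus sham, each on days 2, 7 and 14), coloured from -1 (blue) to 1 (red), with a star where the adjusted p was under 0.05. Casting has most of its stars on day 2, and the row of Map1lc3b is starred in every comparison with sham.

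Ulk1, the kinase that starts autophagosome formation, had the largest leg difference of the 10 in casting. On day 2 its signal was 885.9 to 1170 in 9 of the 10 cast legs and 528.2 in the tenth (median 952.1), against 502.2 to 643.1 in the 9 control legs (median 618.5). The 9 highest cast legs lay above every control leg, and the cast leg was higher in 9 of 9 pairs. This was a log2 difference of 0.65 ± 0.09 (SE), or 1.57 times (adjusted p = 1.69e-09), and the second Ulk1 probe set gave 0.62. Cast legs then held 437.6 to 789.5 (median 543.6) on day 7 and 420.8 to 603.9 (median 513.4) on day 14, within reach of their control legs (medians 553.8 and 589.1). The differences of 0.08 ± 0.10 and -0.20 ± 0.09 did not pass (adjusted p = 0.742 and 0.133), although the cast leg was the lower one in 8 of 9 pairs on day 14. The leg difference was smaller on day 14 than on day 2 by a test of that change (-0.85 ± 0.13, adjusted p = 3.49e-07).

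Ulk1 was higher in the left leg of the tenotomy animals on all 3 days. On day 2 the left legs held 425.1, 469.4, 471.6, 501.0 and 515.4 and the right legs 319.4, 339.3, 381.3, 408.9 and 413.5, with no overlap (0.36 ± 0.12, adjusted p = 0.0126). On day 7 the left legs lay between 514.6 and 635.6 (median 553.8) and the right between 306.2 and 586.1 (median 428.2), and the left was higher in 7 of 7 pairs (0.34 ± 0.10, adjusted p = 0.00544). On day 14 the left legs held 524.5, 562.8, 578.6, 644.7 and 713.0 and the right 445.8, 458.4, 470.8, 473.7 and 561.4, so that 4 left legs exceeded every right leg (0.32 ± 0.12, adjusted p = 0.0417). The day 14 call rested on single arrays: without right replicate 1, 2, 3 or 4 or left replicate 1, 2 or 5 the adjusted p was 0.0632, 0.0786, 0.106, 0.0787, 0.152, 0.0564 and 0.0873, and without right replicate 3 of day 2 that of day 2 was 0.0576. With the actin 3′ to 5′ ratio as a covariate the day 2 and day 14 values were 0.25 and 0.23 (adjusted p = 0.169 and 0.243), and quantile normalization gave 0.29 on day 14 (adjusted p = 0.0714). Without the animal as a block the day 14 adjusted p was 0.0606. The second probe set gave 0.29 (adjusted p = 0.140), 0.50 and 0.54 on days 2, 7 and 14.

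Becn1 encodes Beclin 1, the scaffold of the lipid kinase complex, and did not pass in any leg difference, with log2 differences between -0.11 and 0.13. Group means ran from 499.6 to 549.2 in the 6 casting groups, and the ranges of cast and control legs overlapped on each day. Tenotomy group means ran from 424.0 to 494.4, again with overlapping legs. Of its 4 other probe sets, a dim one was higher in the left leg on day 7 (0.54, adjusted p = 0.0284).

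Wipi1 encodes a protein that reads the lipid made by that complex. On day 2 of casting its signal was 633.4 to 933.6 in the cast legs (median 762.3) and 532.6 to 708.9 in the control legs (median 669.5), with 8 of 10 cast legs above every control leg and the cast leg higher in 9 of 9 pairs (0.24 ± 0.06, adjusted p = 0.000455). On day 7 the order was the other way: the cast legs held 503.0 to 611.1 (median 539.9) and the control legs 608.0 to 642.1 (median 629.3), and the cast leg was lower in 7 of 7 pairs (-0.20 ± 0.06, adjusted p = 0.0312). Without the animal as a block the day 7 adjusted p was 0.0511, and with the mean of the gene's probe sets the value was -0.08 (adjusted p = 0.612). Of its 5 other probe sets, 3 also rose on day 2 (0.29, 0.40 and 0.48), 1 gave 0.26 without passing and 1 gave -0.0036, while on day 7 values ran from -0.22 to 0.13 with 1 past the threshold. The left minus right difference on day 2 of the tenotomy animals was -0.18 ± 0.08 (adjusted p = 0.0546), and 1 of the other probe sets passed in the opposite direction (0.42, adjusted p = 0.00584). The value of the probe set used was past the threshold under some settings: -0.24 under quantile normalization (adjusted p = 0.0102) and -0.29 with the actin ratio as a covariate (adjusted p = 0.00568). With only these groups in the fit the adjusted p was 0.177, and without left replicate 1 the value was -0.10 (adjusted p = 0.381).

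Atg5 and Atg7 belong to the conjugation machinery. Atg5 was 113.4 to 171.7 in the cast legs of day 2 (median 149.8) and 129.7 to 198.8 in the control legs (median 185.5). The cast leg was lower in 9 of 9 pairs, and 4 cast legs lay below every control leg (-0.28 ± 0.08, adjusted p = 0.00900). The other 2 Atg5 probe sets gave -0.21 and -0.12 without passing (adjusted p = 0.311 and 0.425). In the tenotomy animals of day 2 the probe set used gave 0.04 (adjusted p = 0.812), while the second of these was lower in the left leg (-0.35, adjusted p = 0.0207).

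Atg7, the enzyme that activates LC3 proteins for conjugation, differed by probe set in casting. The probe set used, the brightest, gave 48.15 to 70.02 in the cast legs of day 2 and 54.62 to 74.46 in the control legs (-0.10 ± 0.11, adjusted p = 0.582), but the 2 dimmer ones (mean signals 23.74 and 17.19) gave 1.16 and 0.65 (adjusted p = 0.00217 and 0.0408), and the mean of the gene's probe sets gave 0.43 (adjusted p = 0.00403). All 3 pointed the same way on day 2 of the tenotomy animals. The left legs held 43.10, 47.52, 49.16, 52.54 and 53.11 and the right legs 57.91, 62.62, 72.61, 73.01 and 82.30, with no overlap (-0.47 ± 0.14, adjusted p = 0.00611). The dimmer probe sets gave -1.60 and -1.27 (adjusted p = 0.00123 and 0.00114), and the mean of probe sets gave -0.83. Under quantile normalization the value was -0.30 (adjusted p = 0.0800).

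LC3 and GABARAP proteins coat the growing membrane and hold cargo receptors. Map1lc3b, which encodes LC3B, was higher in the cast legs on days 2 and 7. On day 2 the cast legs held 1849 to 2795 (median 2130) and the control legs 1422 to 2048 (median 1605), with 6 of 10 cast legs above every control leg and the cast leg higher in 9 of 9 pairs (0.38 ± 0.08, adjusted p = 0.000147). Cast legs on day 7 held 1473 to 2036 (median 1899) and the control legs 1250 to 2027 (median 1461), with a difference of 0.31 ± 0.09 (adjusted p = 0.0193). The ranges overlapped through the lowest cast leg and the highest control leg. The other cast legs held 1773 to 2036 and the other control legs 1250 to 1606. On day 14 the medians were 1573 and 1754 and the difference of -0.07 ± 0.09 did not pass (adjusted p = 0.675). The 2 other Map1lc3b probe sets of similar brightness gave 0.41 and 0.31 on day 2, both past the threshold, and 0.22 and 0.13 on day 7, of which the first passed. The fourth, near background (mean signal 9.943), gave 0.72 and -0.28 without passing, and with the mean of all probe sets the day 7 value was 0.10 (adjusted p = 0.718).

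The same Map1lc3b probe set was lower in the left leg of the tenotomy animals. On day 2 the left legs held 1695, 1901, 1955, 2120 and 2475 and the right legs 2350, 2369, 2391, 2617 and 2675, so 4 left legs lay below every right leg (-0.30 ± 0.11, adjusted p = 0.0302). On day 7 the left legs held 1609 to 2146 (median 1951) and the right legs 1914 to 3046 (median 2530), with the left lower in 7 of 7 pairs (-0.36 ± 0.10, adjusted p = 0.00187). The other probe sets did not show it: they gave -0.15 to 0.04 on day 2 and -0.16 to 0.06 on day 7, none past the threshold. The day 2 call was also lost without right replicate 3 or 5 or left replicate 2, 3 or 5 (adjusted p = 0.0627, 0.0763, 0.123, 0.0681 and 0.0564) and with the actin ratio as a covariate (-0.28, adjusted p = 0.0982), while quantile normalization gave -0.52. With the mean of the probe sets the values of days 2 and 7 were -0.11 and -0.14 (adjusted p = 0.531 and 0.323).

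Map1lc3a, which encodes LC3A, did not differ between cast and control legs on day 2 (-0.02 ± 0.09, adjusted p = 0.944). On day 7 the cast legs held 2800 to 4751 (median 3727) and the control legs 2641 to 3432 (median 2795), with 4 of 7 cast legs above every control leg, a difference of 0.31 ± 0.11 that narrowly missed the threshold (adjusted p = 0.0510). Quantile normalization gave 0.43 (adjusted p = 7.73e-06), and the second Map1lc3a probe set rose by 0.41. On day 2 of the tenotomy animals the left legs held 4253, 4441, 4473, 4502 and 5151 and the right legs 3046, 3330, 3402, 3850 and 4296. The left leg was higher in 5 of 5 pairs, and only the lowest left leg fell within the range of the right legs (0.36 ± 0.13, adjusted p = 0.0228), with 0.42 from the second probe set. Under quantile normalization the value was 0.10 (adjusted p = 0.434) and with the actin ratio as a covariate 0.05 (adjusted p = 0.817). The call was also lost without right replicate 3 or 5 or left replicate 3 (adjusted p = 0.0561, 0.0871 and 0.0722).

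Gabarapl1, a member of the GABARAP branch, had the largest difference of the 10 between the legs of the tenotomy animals. On day 2 the left legs held 351.7, 354.8, 437.1, 463.0 and 473.3, and the right legs 643.7, 653.3, 668.0, 686.1 and 906.4. The right legs were 1.70 times the left, without overlap and in 5 of 5 pairs (-0.77 ± 0.16, adjusted p = 3.07e-05), and the second probe set gave -0.88. The differences of -0.27 on day 7 and -0.19 on day 14 did not pass (adjusted p = 0.123 and 0.438), though the second probe set passed on day 7 (-0.37). In casting the day 2 cast legs held 546.1 to 944.1 (median 864.0) and the control legs 496.5 to 825.8 (median 695.8), and 6 of 10 cast legs lay above every control leg, but the difference of 0.23 ± 0.12 did not pass (adjusted p = 0.154).

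Sqstm1 encodes p62, the receptor that links ubiquitinated cargo to LC3. On day 2 of casting it held 2793 to 5949 in the cast legs (median 4863) and 2288 to 4104 in the control legs (median 3106), with 7 of 10 cast legs above every control leg. The cast leg was higher in 9 of 9 pairs (0.54 ± 0.09, 1.46 times, adjusted p = 1.49e-06), and the dim second probe set rose by 0.43. Medians on day 7 were 3092 and 2484, and the difference of 0.23 ± 0.10 did not pass (adjusted p = 0.187). By day 14 the medians were 2774 and 3059 (-0.02 ± 0.10, adjusted p = 0.920), and the change in the leg difference from day 2 to day 14 was -0.56 ± 0.13 (adjusted p = 0.00135).

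In the tenotomy animals of day 2 the left legs held 2815, 2924, 3190, 3530 and 3973 for Sqstm1, and the right legs 3859, 3888, 4101, 4386 and 4747. The left leg was lower in 5 of 5 pairs and 4 left legs lay below every right leg (-0.36 ± 0.13, adjusted p = 0.0184), while the second probe set gave -0.21 (adjusted p = 0.441). Quantile normalization gave -0.56 and the actin ratio as a covariate -0.67. The call was lost without right replicate 1, left replicate 1 or left replicate 2 (adjusted p = 0.0582, 0.0678 and 0.0586) and with the mean of the probe sets (-0.29, adjusted p = 0.0715).

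Bnip3 encodes a receptor on the outer mitochondrial membrane and had 1 probe set. In casting its day 2 difference of 0.13 ± 0.07 did not pass (adjusted p = 0.161). On day 14 the cast legs held 2232 to 3223 (median 2617) and the control legs 2746 to 3439 (median 2970), with 6 of 9 cast legs below every control leg and 8 of 9 pairs lower (-0.20 ± 0.07, adjusted p = 0.0336). That call was lost without the animal as a block and with only these groups in the fit (adjusted p = 0.0536 and 0.0698). The change in the leg difference from day 2 to day 14 was -0.33 ± 0.09 (adjusted p = 0.00970). Left legs of the tenotomy animals on day 2 held 2986, 3305, 3472, 3574 and 3640 and the right legs 2105, 2193, 2359, 2522 and 2685. They did not overlap, and the left leg was 1.43 times the right (0.52 ± 0.09, adjusted p = 1.08e-06), or 0.26 on the log2 scale under quantile normalization. Medians on day 7 were 2566 and 2498 and on day 14 2910 and 3042, with differences of 0.04 and -0.03 that did not pass (adjusted p = 0.776 and 0.853).

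**Figure D3:**
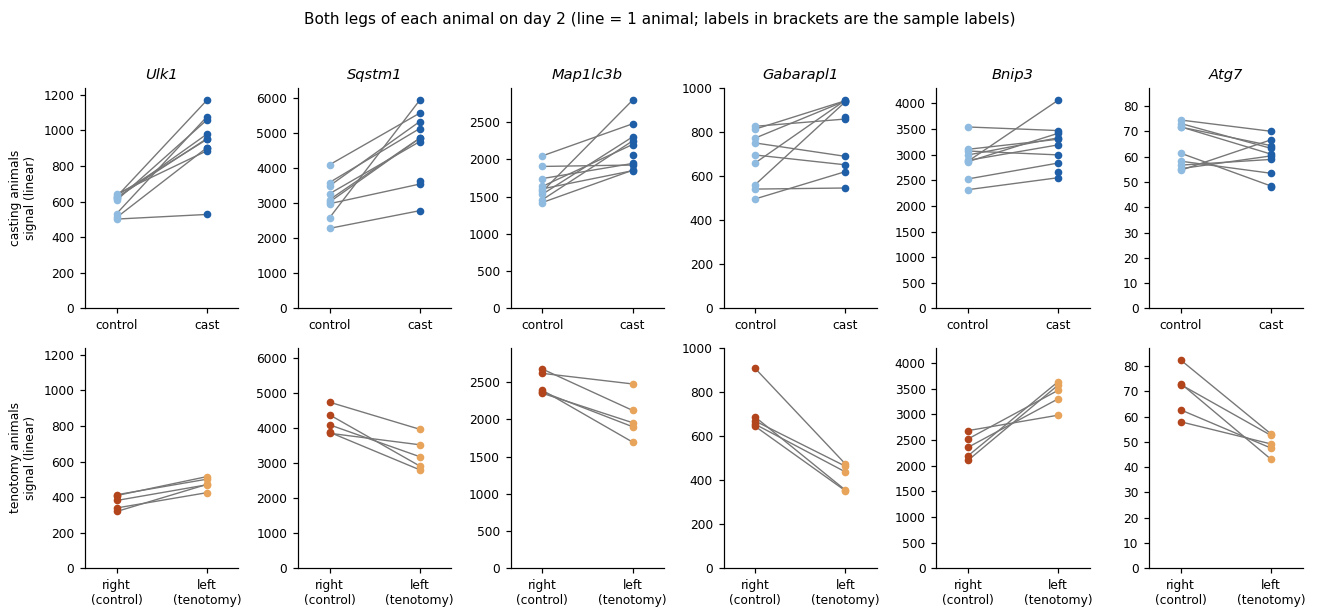
Signal (linear axis from 0) of 6 of the genes in both legs on day 2, with the casting animals in the top row and the tenotomy animals in the bottom row; a line joins the legs of 1 animal and unjoined points are legs measured alone. Every line of Ulk1, Sqstm1 and Map1lc3b rises from the control to the cast leg, and every line of Gabarapl1 and Atg7 falls and of Bnip3 rises from the right to the left leg of the tenotomy animals.

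Each leg of the tenotomy animals was also set against sham muscle of the same day, so that both comparisons share the sham arrays. Sham and tenotomy animals are separate cohorts, and the ages of the sham mice are not given. In every comparison with sham, including those of single probe sets below, tenotomy and cohort cannot be told apart. On day 2, 1 of the 10 genes differed from sham in the left leg (10.1% of all genes) and 5 in the right leg (35.1% of all genes). The 3 sham muscles of day 2 held 2472, 2482 and 2619 for Sqstm1, 386.4, 404.6 and 492.1 for Gabarapl1, and 3358, 3682 and 4020 for Bnip3. The right legs did not overlap with them for any of the 3 genes (0.73 ± 0.15, 0.72 ± 0.19 and -0.64 ± 0.11, adjusted p = 5.97e-05, 0.00142 and 1.05e-06), while the left legs gave 0.37, -0.04 and -0.12 without passing (adjusted p = 0.122, 0.932 and 0.582). For Sqstm1 the left legs also lay above all 3 sham muscles, and the share of all genes without overlap was not counted. In the right legs 18 of 18 macrophage and monocyte markers were above sham on days 2 and 7 and 11 on day 14, and 8 of 8 fibre markers were below it on days 2 and 7. Fibroblast markers were above sham in 1, 6 and 5 of 7 cases on days 2, 7 and 14 and tenocyte markers in 1, 5 and 5 of 6, and the actin 3′ to 5′ log2 ratio averaged -0.02 to 0.11 by day in the right legs against -1.31 to -1.12 in sham. The Gapdh ratio averaged -0.29 to -0.205 by day in the right legs against -0.208 to -0.169 in sham. The part of these in the values was not tested. In the left legs 0, 0 and 0 of the 18 were higher and 0, 1 and 9 lower, and 7 fibre markers were lower on day 7. Fibroblast markers of the left legs were below sham in 3, 0 and 4 of 7 cases on the 3 days. Endothelial markers of the left legs were below sham in 3, 5 and 4 of 8 cases and above it in 1, 1 and 2. Those of the right legs were below it in 3, 3 and 3 and above it in 1, 2 and 2. Adipocyte markers were below sham in 1, 2 and 2 of 4 cases in the left legs and in 1, 3 and 2 in the right. The actin ratio of the left legs averaged -0.828, -0.375 and -0.581, also above sham. The part of these in the values of either leg was not tested. The day 2 right leg values of Sqstm1 and Bnip3 moved to 1.22 with the actin ratio as a covariate and to -0.29 under quantile normalization. On day 7 the left leg had 4 genes past the threshold, Ulk1 (0.39 ± 0.11), Map1lc3b and Becn1 (0.24 ± 0.08) higher and Bnip3 lower (-0.43 ± 0.08), where 19.2% of all genes passed. The right leg had 3, Map1lc3b and Wipi1 (0.20 ± 0.07) higher and Bnip3 lower (-0.46 ± 0.08), where 41.3% passed. On day 14 the left leg had Ulk1 (0.52 ± 0.11), Map1lc3b and Wipi1 (0.32 ± 0.07) higher (20.8% of all genes), and the right leg had Map1lc3b and Wipi1 (0.47 ± 0.07) higher and Atg5 lower (-0.42 ± 0.11), with 36.0% of all genes. With the actin ratio as a covariate the left leg's Becn1 value on day 7 was 0.14 (adjusted p = 0.323) and the right leg's Bnip3 value on day 7 was -0.25 (adjusted p = 0.0843), or -0.23 under quantile normalization (adjusted p = 0.000702). The same covariate gave -0.74 for Atg5 in the right leg on day 14 and 0.43 and 0.37 for Wipi1 in the right leg on days 2 and 7. The right leg's Wipi1 call on day 2 (0.26 ± 0.09, adjusted p = 0.0218) was lost without sham replicate 2 or 3 or right replicate 1 (adjusted p = 0.127, 0.0698 and 0.0771).

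Map1lc3b was above sham in both legs on all 3 days by its brightest probe set and much less so by the others. Sham muscle held 1161, 1261 and 1333 on day 2, 1014 to 1677 (median 1178) on day 7 and 1210 to 1861 (median 1354) on day 14. The right legs exceeded it by 0.98 ± 0.14, 0.98 ± 0.10 and 0.50 ± 0.11 and the left legs by 0.69 ± 0.14, 0.62 ± 0.10 and 0.53 ± 0.11. Of the 2 other probe sets of similar brightness, the first gave 0.20, 0.30 and 0.02 for the right legs and 0.16, 0.14 and 0.20 for the left, of which the right leg on day 7 passed. The second gave 0.09, -0.09 and -0.25 for the right legs, the last of them past the threshold in the opposite direction (adjusted p = 0.00565), and 0.14, -0.03 and -0.03 for the left. With the mean of the probe sets Map1lc3b gave 0.34, 0.03 and 0.18 for the left leg on days 2 and 14 and the right leg on day 14 without passing (adjusted p = 0.155, 0.886 and 0.239). The probe sets of Wipi1 and Ulk1 also disagreed against sham. For Wipi1, 1 other probe set rose in both legs on all 3 days (0.57 to 0.84), whereas another fell in the right leg on days 2 and 14 (-0.48 and -0.53, adjusted p = 0.0119 and 0.000201) and 1 more fell in the left leg on days 2 and 14 (-0.90 and -0.46) and in the right leg on day 2 (-0.55). With the mean of its probe sets no Wipi1 value against sham passed in the comparisons called above (-0.01 to 0.09). For Ulk1 the second probe set gave 0.06 and 0.18 for the left leg on days 7 and 14 without passing (adjusted p = 0.812 and 0.395), and the mean of both gave 0.22 on day 7 (adjusted p = 0.164). It fell in the right leg on days 7 and 14 (-0.44 and -0.36). The fall of Atg5 on day 14 was not seen with its other probe sets (0.03 and 0.09), of which the second rose in the right leg on day 2 (0.75, adjusted p = 3.19e-05). The second bright Becn1 probe set was above sham in the right leg on days 2, 7 and 14 (0.41, 0.68 and 0.42) and in the left leg on days 7 and 14 (0.54 and 0.33). The second Map1lc3a probe set was below sham in the right leg on all 3 days (-0.53, -0.36 and -0.40), where the probe set used gave -0.28, -0.03 and 0.08 without passing. The 2 dim probe sets of Atg7 rose in the right leg against sham on each day (1.04 to 1.45 on days 2 and 7, 1.20 and 0.76 on day 14), where the probe set used gave 0.37, 0.26 and -0.01 without passing.

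**Figure D4:**
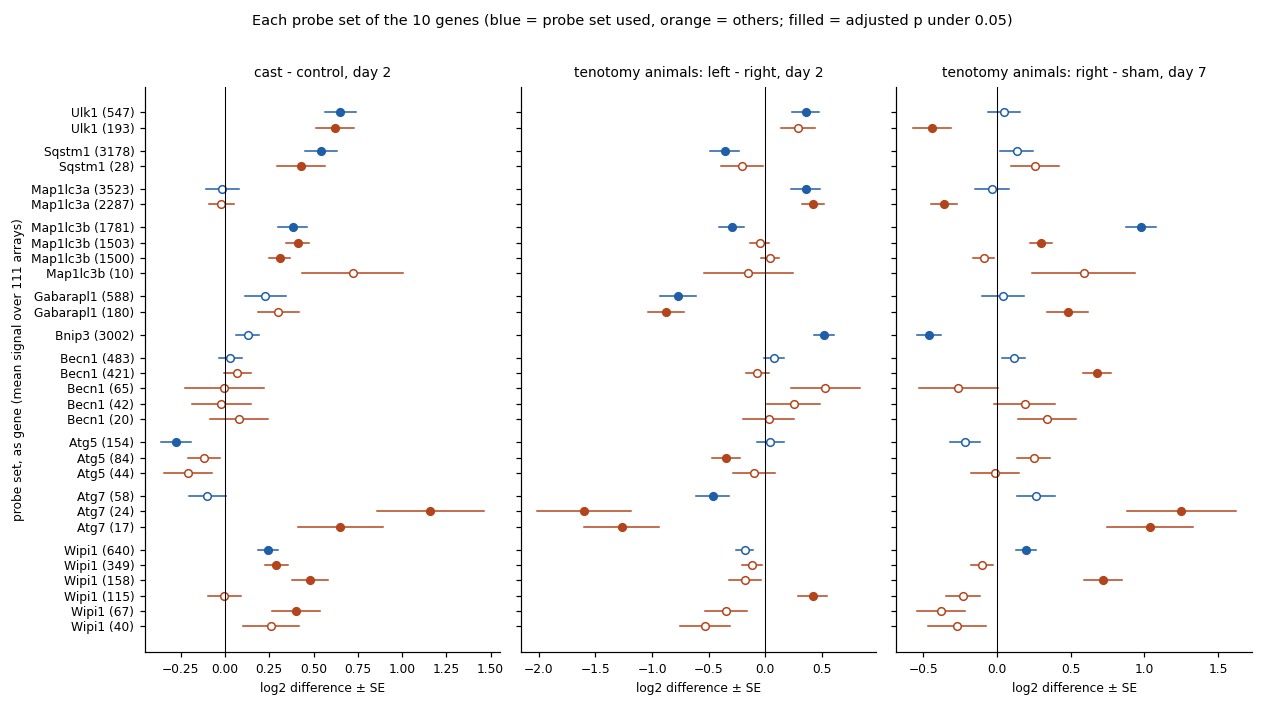
Log2 difference ± SE (x axis) of every probe set of the 10 genes that passed the filter (rows, named by gene with the mean signal over 111 arrays) in 3 comparisons, with the probe set used in blue, the others in orange, and filled points past the threshold. The 3 bright Map1lc3b probe sets lie together for casting on day 2 (0.38, 0.41 and 0.31) and apart for the right leg against sham on day 7 (0.98, 0.30 and -0.09).

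Few of these genes differed between sham and naive muscle. Between sham and naive muscle limma called 0 of the 10 on day 2, where 0.0% of all genes passed and 1120 had an unadjusted p under 0.05, and 0 of 10 on day 7 (0.63% of all genes). None of the 10 had an unadjusted p under 0.05 on either day. On day 14 Becn1 was higher (2.23% of all genes). Its sham muscles held 418.8 to 612.5 (median 477.6) against 350.8 to 458.1 in naive muscle (median 396.3), a difference of 0.30 ± 0.08 (adjusted p = 0.0174). Its 4 other probe sets gave -0.04 to 0.35 without passing, and the mean of the probe sets 0.14 (adjusted p = 0.547).

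The uncast legs of the casting animals differed from naive muscle in 9 of the 10 genes, 7 higher and 2 lower, where 32.6% of all genes passed, 19.9% higher and 12.7% lower. Averaged over the 3 days, Gabarapl1 was higher by 0.48 ± 0.11, Ulk1 by 0.42 ± 0.09 and Becn1 by 0.41 ± 0.06. Map1lc3b, Atg5, Atg7 and Wipi1 were higher by 0.35, 0.34, 0.33 and 0.15, and Map1lc3a and Bnip3 were lower (-0.45 ± 0.09 and -0.25 ± 0.06). Ulk1 held 468.3 to 705.1 in these 26 legs against 383.7 to 482.8 in naive muscle, and Becn1 held 415.9 to 750.2 against 350.8 to 458.1. Casting and naive animals are separate cohorts, and the uncast state and the cohort cannot be told apart. In these legs all 8 fibre markers were lower than in naive muscle. Higher were 17 of 18 macrophage and monocyte, 5 of 6 tenocyte, 3 of 4 Schwann cell and 4 of 8 endothelial markers. The part of these in the result was not tested, nor that of the actin 3′ to 5′ ratio, which averaged -0.73 to -0.33 by day against -1.19. The Gapdh ratio lay the other way, with averages of -0.286 to -0.278 by day against -0.188 in naive muscle. Quantile normalization ended the calls of Map1lc3a (-0.11, adjusted p = 0.199) and Atg7 (0.24, adjusted p = 0.0539) and turned that of Bnip3 (0.06). With the actin ratio as a covariate Map1lc3a, Bnip3 and Atg5 gave -0.19, -0.15 and 0.16 without passing. The means of probe sets for Map1lc3b, Atg7 and Wipi1 were -0.07, 0.13 and 0.0037. Of the other Wipi1 probe sets 2 were lower (-0.24 and -0.41) and 1 was higher (0.73). The second Sqstm1 probe set was lower (-0.50, adjusted p = 0.00137), where the probe set used gave 0.19 (adjusted p = 0.100).

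The leg differences were set against each other between the models, where no array is shared. With the labels as given, the difference of left minus right in the tenotomy animals minus cast minus control was below 0 on day 2 for Gabarapl1 (-1.0 ± 0.20), Sqstm1 (-0.90 ± 0.16), Map1lc3b (-0.68 ± 0.14) and Wipi1 (-0.42 ± 0.10) and above 0 for Bnip3 (0.39 ± 0.11), 5 of the 10 genes (35.0% of all genes). On day 7 it passed for Map1lc3b (-0.67 ± 0.13) and Map1lc3a (-0.42 ± 0.15), where 29.6% of all genes passed. On day 14 it passed for Ulk1 (0.52 ± 0.15) and Wipi1 (-0.27 ± 0.10), where 28.7% did. With the sides as in the design text, right minus left against cast minus control, 4 genes passed on day 2 (34.1% of all genes): Ulk1 (-1.01 ± 0.15) and Bnip3 (-0.65 ± 0.11) below 0 and Atg7 (0.57 ± 0.18) and Gabarapl1 (0.54 ± 0.20) above 0. On day 7 Ulk1 passed (-0.42 ± 0.14, 18.9% of all genes), and on day 14 limma called 0 of the 10 (8.14% of all genes), with 1 at an unadjusted p under 0.05. Both readings use the same arrays with the sign of the tenotomy difference turned, so they are not separate tests. Gabarapl1 and Bnip3 passed on day 2 under both. Their opposite directions follow from the turned sign, since the tenotomy difference was larger than the casting one (-0.77 against 0.23 and 0.52 against 0.13). The Bnip3 call with the labels as given was lost under quantile normalization (0.06, adjusted p = 0.600) and with the actin ratio as a covariate (0.26, adjusted p = 0.0895). With the animal as a fixed block the Map1lc3a call of day 7 was lost (-0.41, adjusted p = 0.0508). With the sides of the design text, the Atg7 call of day 2 was lost under quantile normalization (0.36, adjusted p = 0.102) and the Ulk1 call of day 7 with the actin ratio as a covariate (-0.33, adjusted p = 0.143). The Gabarapl1 call with the sides of the design text was lost without right replicate 1 or left replicate 1 or 5 (adjusted p = 0.0777, 0.0571 and 0.0592), and the Wipi1 call of day 14 without right replicate 4 or 5 or left replicate 1 or 3 (adjusted p = 0.0502, 0.0601, 0.0871 and 0.134). From day 2 to day 14 the leg difference in the casting animals fell for 4 of the 10 genes (14.3% of all genes, of either direction), Ulk1, Sqstm1, Map1lc3b (-0.45 ± 0.12) and Bnip3. In the tenotomy animals the difference of left minus right changed for 2 (8.18% of all genes), Bnip3 (-0.55 ± 0.13) and Atg7 (0.75 ± 0.21). With the mean of probe sets the calls of Atg7 here (0.51, adjusted p = 0.184), of Map1lc3b over time in casting (-0.32, adjusted p = 0.0820) and of the model difference for Map1lc3b on day 7 (-0.24, adjusted p = 0.235) and Wipi1 on day 14 (-0.12, adjusted p = 0.461) were lost.

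The 10 genes were part of a wider list of 71 autophagy genes, of which 69 were tested. On day 2 of casting 26 of the 69 were higher in the cast legs and 8 lower, with a median log2 difference of 0.14 against -0.03 over all genes, of which 11.0% were higher and 13.3% lower. Without the 10 genes already described, 22 of 59 were higher and 7 lower. By role, 6 of 9 tested cargo receptors were higher and 1 lower, 6 of 8 lysosome fusion genes higher and 1 lower, and 6 of 9 genes of Atg9 and phosphoinositide effectors higher, while the 10 conjugation enzymes had 1 higher and 3 lower. The largest changes that passed outside the 10 genes were in Depp1, a FOXO-induced gene (1.87 ± 0.30), the cargo receptors Nbr1 (0.56 ± 0.06) and Tax1bp1 (0.55 ± 0.07), and the tethering factor Epg5 (0.46 ± 0.08), each higher in at least 8 of 9 pairs. On day 7, 5 were higher and 3 lower (8.78% of all genes passed), with Tax1bp1 (0.34) and the fusion SNARE Stx17 (0.29) higher and the late endosome GTPase Rab7 (-0.33) and the mTORC1 subunit Rptor (-0.28) lower. On day 14, 5 were higher and 6 lower (13.3% of all genes passed), with the initiation complex genes Atg101 lower (-0.38) and Rb1cc1 higher (0.29), the LC3 protease Atg4d lower (-0.52) and the lysosomal membrane protein Lamp2 higher (0.26).

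In the tenotomy animals on day 2, 16 of the 69 were higher in the left leg and 16 lower, with a median of 0.05 against -0.03 over all genes, of which 15.9% were higher and 20.8% lower. Without the 10 genes, 13 of 59 were higher and 12 lower. Of the 5 Atg8 proteins 2 were higher and 2 lower, and of the 15 regulators 4 were higher and 2 lower. The lysosomal transcription factor Tfe3 (-0.93 ± 0.12) and Lamp2 (-0.76 ± 0.10) were lower in the left leg in 5 of 5 pairs, and the AMP kinase subunit Prkaa2 (0.71 ± 0.09) and the transcription factor Foxo4 (0.71 ± 0.11) were higher in 5 of 5 pairs. On day 7, 11 were higher and 10 lower (33.0% of all genes passed), with Lamp2 (-0.88) and Tfe3 (-0.58) again lower and Atg4d (0.56) and Rab7 (0.55) higher. On day 14, 9 were higher and 5 lower (23.2% of all genes passed), with Lamp2 lower (-0.71) and Atg4d (0.48), Rab7 (0.46) and Foxo4 (0.44) higher. Macrophage markers moved with these differences too: 18 of 18 were lower in the left leg on day 7 and 16 of 18 on day 14. On days 2, 7 and 14, fibroblast markers were lower in the left leg in 6, 7 and 6 of 7 cases (median log2 differences -1.02, -1.37 and -1.50) and tenocyte markers in 3, 6 and 5 of 6, and 3 of 8 fibre markers were higher on day 2 and 1 on day 7. In casting 10 of 18 macrophage markers were lower and 1 higher in the cast leg on day 2, 4 were higher on day 7 and 18 on day 14. Fibroblast markers were lower in 3 of 7 cases on day 2 and higher in 2 on day 14. Tenocyte markers were lower in 3 of 6 cases on day 2 and 1 on day 14, and endothelial in 2 of 8 on day 2 and 1 on day 7. The actin ratio averaged -0.672, -0.664 and -0.657 by day in the cast legs, against -0.725, -0.493 and -0.326 in the control legs. The part of all these in the results of both models was not tested.

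**Figure D5:**
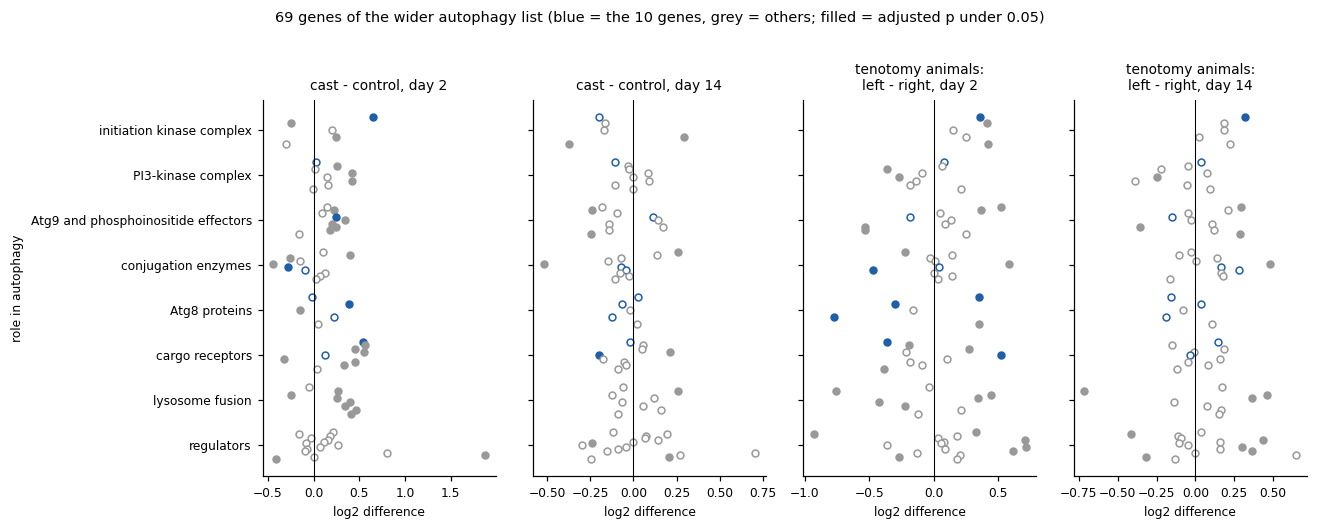
Log2 difference (x axis) of the 69 tested genes of the wider autophagy list, by role (rows), in 4 leg differences (cast minus control and left minus right, each on days 2 and 14), with the 10 genes in blue, the others in grey and filled points past the threshold. On day 2 of casting most filled points of the cargo receptor and lysosome fusion rows lie above 0, while on day 2 of the tenotomy animals filled points lie on both sides (16 higher and 16 lower).

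The 10 genes did not follow 1 pattern across the 16 groups. As a description over group means that share arrays and cohorts, Pearson's r over 45 pairs of the genes had a median of 0.16, with 10 pairs above 0.5 and 6 below -0.5, and the highest values were those of Sqstm1 with Map1lc3b (0.77), Sqstm1 with Wipi1 (0.70) and Map1lc3b with Wipi1 (0.70). Among all tested genes the patterns most like that of Sqstm1 were those of Ube2o, Tsr1 and Psmd3 (r = 0.92 for each). Those most like Ulk1 were Tapt1, Traf6 and Gm10336 (0.92, 0.92 and 0.91), those most like Map1lc3b were Naf1, Wdr75 and Pxn (0.94, 0.93 and 0.93), and those most like Bnip3 were Lrrc24, Etfa and Tsr3 (0.92, 0.89 and 0.88). These values were picked as the highest of all tested genes over 16 means, so they are high by selection. The closest match of each of the 10 genes had r from 0.865 to 0.936, and shared regulation was not tested.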

How the data were processed

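RNA of 111 gastrocnemius muscles from 70 mice was measured on 1-colour Affymetrix arrays of 45101 probe sets, 64 of them controls. The deposited values are linear signal intensities, made with MAS5 in GCOS per the submitters' processing notes. The authors' deposited intensities have the same mean on every array after trimming 2% of values at each end (99.955 to 99.965), while the median ran from 16.14 to 26.36. No 2 arrays were identical. The number of arrays limits the precision.

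Groups came from the labels, with the sham group of day 2 taken from its titles. The platform annotation gave 34958 probe sets 1 gene, 932 several and 9211 none, and 34754 symbols were taken from the RefSeq gene table. Per gene the probe set of highest mean signal was kept. Signals became log2(signal + 3.982), the pseudocount being the 20th percentile of all signals, so that fold changes of low genes are understated. Genes above their array's 40th percentile (9.65 to 17.84) in at least 5 arrays were tested, 16029 of 18194, all 10 members among them. Using limma 3.58.1 in R 4.3.3, the means of 16 groups were fitted, the 2 legs of an animal forming a random block (within-animal correlation 0.0965), followed by empirical Bayes with a trend, 24 comparisons, and Benjamini-Hochberg adjustment within each at 0.05. The pairing rests on the animal numbers in the labels: deviations of the 2 legs of an animal had a mean correlation of 0.0659 in 25 casting and 0.0595 in 16 tenotomy animals, against -0.0073 and -0.0114 between different animals.

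The fit was tested on simulated data. Alternatives were other pseudocounts (1 and 16), quantile normalization, other filters, the mean of or each other probe set of a gene, no block or a fixed block, only the groups compared, array weights, the beta-actin 3′ to 5′ ratio as a covariate, and leaving out an array of outlying median signal or, in groups of 3 to 5, each replicate. All 10 members are named, of the wider list the 4 genes of largest absolute difference among those past the threshold in each leg difference, and for each member up to 3 genes of like pattern. The members and lists were chosen with earlier results of these data known. Cohorts and models cannot be told apart, and leg side goes with treatment in each model.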

Additional observations from a re-analysis of the deposited data

Results flagged for a closer look

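A single array stood apart from the rest of its group in 7 of 150 groups of 4 to 10 arrays tested over the 10 genes, where chance gives about 5% of groups. For Ulk1 the cast leg replicate 10 of day 2 held 528.2 against 885.9 to 1170 in the others (gap over range 0.65), and the right leg replicate 5 of the tenotomy animals on day 14 held 561.4 against 445.8 to 473.7 (0.737). For Sqstm1 the casting control replicate 4 of day 7 held 3621 against 2228 to 2592 (0.688). For Map1lc3b the cast leg replicate 1 of day 7 held 1473 against 1773 to 2036 (0.573). For Gabarapl1 the right leg replicate 1 of the tenotomy animals on day 2 held 906.4 against 643.7 to 686.1 (0.814). For Becn1 the casting control replicate 2 of day 2 held 415.9 against 476.1 to 535.2 (0.536). For Atg7 the left leg replicate 3 of the tenotomy animals on day 7 held 34.86 against 55.91 to 71.33 (0.654).

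Leg differences of the genes differed between days or models by limma's test of that difference. From day 2 to day 14 the cast minus control difference changed by -0.85 for Ulk1, -0.56 for Sqstm1, -0.45 for Map1lc3b and -0.33 for Bnip3, and the left minus right difference of the tenotomy animals by -0.55 for Bnip3 and 0.75 for Atg7. Between the models, left minus right against cast minus control differed on day 2 by -0.90 for Sqstm1, -0.68 for Map1lc3b, -1.0 for Gabarapl1, 0.39 for Bnip3 and -0.42 for Wipi1. It differed on day 7 by -0.42 for Map1lc3a and -0.67 for Map1lc3b and on day 14 by 0.52 for Ulk1 and -0.27 for Wipi1. With right minus left in place of left minus right it differed on day 2 by -1.01 for Ulk1, 0.54 for Gabarapl1, -0.65 for Bnip3 and 0.57 for Atg7, and on day 7 by -0.42 for Ulk1.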

How the results depend on the processing

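Of 67 values of the 10 genes past the threshold, none changed its side or direction under pseudocounts of 1 or 16, other filters, array weights or without the array of outlying median signal. The call was lost for 3 without the replicate block, for 1 of 38 with the animal as a fixed block, for 7 under quantile normalization (1 more turned), for 11 with the actin covariate and for 21 with the mean of probe sets (2 more turned). Of 137 comparisons with another probe set 54 lost the call and 36 turned, and of 308 with a replicate left out 29 lost it. The count over all genes can move with the setting too, as from 1408 to 2445 with array weights on day 7 of casting. The counts below are given without that share and are not read as results about the 10 genes. The number of the 10 genes called moved as follows. On day 7 of casting it was 4 under quantile normalization and with array weights and 1 with no replicate block, and on day 14 it was 0 with no replicate block and with only the groups compared. For left minus right it was 4 on day 7 with the actin covariate, and on day 14 it was 4 under quantile normalization, 0 with no replicate block, 3 with the actin covariate and 0 to 1 with a replicate left out. Against sham the left leg had 2 on day 2 under quantile normalization and with the actin covariate and 5 on day 14 with the covariate, and the right leg had 6 on day 7 under quantile normalization and, with the covariate, 5 on day 7 and 6 on day 14. Sham against naive on day 14 had 0 with the mean of probe sets. The change over time in the tenotomy animals had 4 under quantile normalization and 1 with the mean. The model difference had 4 on days 7 and 14 under quantile normalization, 1 on day 7 with a fixed block, and 1 on day 14 with the mean and 1 to 2 with a replicate left out. With the sides of the design text it had 2 on day 7 under quantile normalization, the mean, the fixed block and array weights, and 1 on day 14 under quantile normalization. Values that turned on day 2 of casting were those of Atg7 (0.43 for the mean, 1.16 and 0.65 for other probe sets) and Wipi1 (-0.0036), and on day 7 Map1lc3b (-0.28) and Wipi1 (0.13 and 0.01). For left minus right they were Map1lc3b (0.04 on day 2, 0.06 on day 7) and Wipi1 (0.42 on day 2). For the left leg against sham they were Map1lc3b (-0.03 on day 7, -0.03 and -0.57 on day 14) and Wipi1 (-0.32, -0.46 and -0.25 on day 14). For the right leg against sham they were Wipi1 (-0.48, -0.55 and -0.03 on day 2, -0.01 for the mean and -0.10, -0.23, -0.38 and -0.27 on day 7, -0.53 and -0.19 on day 14), Map1lc3b (-0.09 on day 7, -0.25 on day 14) and Atg5 (0.03 and 0.09 on day 14). Sham against naive turned for Becn1 on day 14 (-0.04). Casting control against naive turned for Map1lc3b (-0.07 for the mean, -0.78), Bnip3 (0.06 under quantile normalization), Atg5 (-0.0026), Atg7 (-0.28) and Wipi1 (-0.24, -0.41 and -0.34). The model difference turned for Wipi1 (0.43 on day 2, 0.28 and 0.05 on day 14) and Map1lc3b (0.16 on day 7). The cause of these shifts was not tested. Over all genes, the count called moved from 1408 to 2445 with array weights on day 7 of casting, from 0 to at most 3 for sham against naive on day 2, from 1611 to 812 without sham replicate 2 in the left leg against sham on day 2, from 6623 to 3760 with the actin covariate in the right leg against sham on day 7, and from 1305 to 831 with a fixed block and 656 with the actin covariate in the model difference with the sides of the design text on day 14.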
